A study of Mus musculus with 3 samples.

Results

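Processed pseudogenes are copies of mRNAs that were reverse transcribed and inserted back into the genome, and their annotated transcripts were followed here through both quantifications deposited for each library. The members are all transcripts that the GENCODE M21 annotation of the mouse genome (mm10) classes as processed_pseudogene (9943 transcripts) or transcribed_processed_pseudogene (301), 10244 transcripts of the 141767 annotated transcripts held by both transcript tables. They belong to 10244 genes of the 55536 in the gene table, and 240 of these genes also hold 327 transcripts of other classes. The study measured total RNA, depleted of ribosomal RNA, from the cytosolic fraction of bone-marrow-derived macrophages of C57BL/6J mice. All 3 libraries come from cells given 100 ng/ml Lipid A, the part of bacterial lipopolysaccharide that Tlr4 recognises, for 20 min. There is no second condition, so the comparisons below are between members, between annotation classes, and between both quantifications of the same reads.

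A processed pseudogene arises when the LINE-1 machinery copies a spliced mRNA into DNA, so it lacks introns, often ends in a remnant of the poly(A) tail and usually lacks the promoter of its parent gene. Genes with abundant, short mRNAs, such as those of ribosomal proteins, have left many such copies in mammalian genomes. Old copies carry many mutations and young ones few. A short read from the mRNA of the parent can therefore match the copy as well as the parent, and a quantification has to divide such reads by a model. "First quantification" below means the gene and transcript tables made from transcriptome alignments, and "second quantification" the transcript table made directly from the reads.

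The libraries held 27282444, 81509889 and 37131774 expected counts in gene rows of the first quantification in replicates 1, 2 and 3, and 32961028, 99317204 and 49482904 estimated counts in the second. All 3 carry the same donor identifier in the labels, so the SDs and p-values below measure only the spread between these libraries, part of which may be technical. All 8 macrophage markers examined reached 1 TPM in every library, at means of 18.6 to 4579 TPM. Of the other lists of blood and tissue cells, only neutrophil markers had members at 1 TPM in every library (3 of 4, the highest at 13.1 TPM). The nuclear RNAs Malat1 and Neat1 summed to 391, 272 and 847 TPM, and the part of nuclear carryover in the values of pseudogenes was not tested.

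Sequences of 6 members show the kinds of copies that the values turn on (GENCODE M21 transcripts, mm10, 5′ to 3′ in the sense of the annotated transcript). The first is Gm12895, the member with the second highest estimated counts, at chr4:122455210-122455435 on the plus strand; capitals mark the 224 of its 226 bases that it shares, as an unbroken run, with Gm12896 at chr4:122122847-122123072.
Gm12895: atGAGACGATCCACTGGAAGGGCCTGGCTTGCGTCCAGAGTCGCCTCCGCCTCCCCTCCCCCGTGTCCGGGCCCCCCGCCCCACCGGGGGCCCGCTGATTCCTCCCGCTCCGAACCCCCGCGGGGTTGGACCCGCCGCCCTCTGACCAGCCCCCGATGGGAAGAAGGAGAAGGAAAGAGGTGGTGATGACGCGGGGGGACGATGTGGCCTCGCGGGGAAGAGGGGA
Bases 177 to 309 of Gm19220 (chr12:40893661-40893793, plus strand) hold the longest run of C in any member, 33 bases, in capitals. Only 3 members have a run of 20 or more.
Gm19220: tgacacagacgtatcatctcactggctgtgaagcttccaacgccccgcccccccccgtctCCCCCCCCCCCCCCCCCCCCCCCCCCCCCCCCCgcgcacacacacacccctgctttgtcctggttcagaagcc
Gm10443 (chr6:86334031-86334240, plus strand) is identical, over all of its 210 bases, to the whole coding sequence of Rps28, a ribosomal protein gene of the small subunit. Its start and stop codons are in capitals.
Gm10443: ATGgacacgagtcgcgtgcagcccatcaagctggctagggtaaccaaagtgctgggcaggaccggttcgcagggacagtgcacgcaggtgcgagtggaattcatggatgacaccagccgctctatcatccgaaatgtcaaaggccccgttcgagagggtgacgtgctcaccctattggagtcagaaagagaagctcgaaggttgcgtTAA
Tpt1-ps3 and Rps6-ps4 are identical to the whole coding sequences of Tpt1 (519 bases), which encodes the translationally controlled tumour protein, and of Rps6 (750 bases). The first 300 bases of each, at chr6:99878035-99878334 and chr2:75191523-75191822, both on the minus strand, are printed with the start codon in capitals, since the quantifications divided over this pair of perfect copies.
Tpt1-ps3: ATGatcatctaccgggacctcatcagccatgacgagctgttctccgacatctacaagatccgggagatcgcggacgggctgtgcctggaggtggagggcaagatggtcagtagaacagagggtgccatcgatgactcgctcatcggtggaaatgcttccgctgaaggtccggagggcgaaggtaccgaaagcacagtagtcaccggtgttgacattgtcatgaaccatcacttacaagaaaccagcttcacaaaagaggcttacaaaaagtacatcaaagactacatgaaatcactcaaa
Rps6-ps4: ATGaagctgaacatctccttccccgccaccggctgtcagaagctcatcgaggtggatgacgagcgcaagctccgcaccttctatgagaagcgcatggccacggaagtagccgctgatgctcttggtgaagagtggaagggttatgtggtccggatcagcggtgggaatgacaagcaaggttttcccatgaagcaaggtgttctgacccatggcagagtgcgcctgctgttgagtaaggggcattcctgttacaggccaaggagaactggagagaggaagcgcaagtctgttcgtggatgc
Gm19253 is an older copy, printed over its first 300 bases (chr6:49071630-49071929, plus strand). Capitals mark the 18 bases that differ from the aligned coding sequence of Mrps36, which was first described as a mitochondrial ribosomal protein gene.
Gm19253: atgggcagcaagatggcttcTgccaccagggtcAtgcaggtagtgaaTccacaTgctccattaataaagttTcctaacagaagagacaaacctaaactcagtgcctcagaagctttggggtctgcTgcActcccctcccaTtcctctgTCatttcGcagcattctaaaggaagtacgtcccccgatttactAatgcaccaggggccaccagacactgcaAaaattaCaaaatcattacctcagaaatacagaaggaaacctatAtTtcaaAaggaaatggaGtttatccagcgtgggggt

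Most processed pseudogenes had no reads assigned at all. Of the 10244 genes, 8077 (78.8%) were at 0 in all 3 libraries, where 3 counts, the limit that a count of 0 allows, correspond to 0.110, 0.0368 and 0.0808 CPM (counting error only). Another 240 genes (2.34%) had at least 10 expected counts in every library, and 132 (1.29%) reached 1 TPM in every library. The separate libraries had 180, 167 and 157 genes at 1 TPM. Protein-coding genes differed widely from this, with 32.5% at 0 and 50.9% at 10 counts in every library. Unprocessed pseudogenes, which come from gene duplication, were at 0 in 93.0% and at 10 counts in 1.66%, and lincRNA genes in 79.6% and 4.33%. Around the limit of 1 TPM, Rps13-ps2 (3.97, 1.01 and 1.39 TPM) and Gm20689 (2.01, 1.01 and 1.56) lay just inside, and Gm10221 (12.2, 3.30 and 0.99) and Gm5063 (0.96, 1.16 and 1.12) just outside. The spread between libraries was wide: over the 171 members that averaged 1 TPM or more the median SD of log2(TPM + 1) was 0.31, against 0.16 over 9172 protein-coding genes, which were not matched to the members in level.

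The share of all reads that went to processed pseudogenes depended on which quantification was read. In the gene table the members' genes held 0.138%, 0.135% and 0.112% of expected counts in replicates 1, 2 and 3 (mean 0.128% ± 0.0142, SD, n = 3), or 37704, 109843 and 41611 counts. Their share of TPM was 0.267%, 0.216% and 0.167%. The member transcripts themselves held 72.0% to 73.8% of these gene counts, the rest lying in other transcripts of the same genes. In the second quantification the member transcripts held 7.53%, 10.3% and 17.1% of estimated counts (mean 11.6% ± 4.90, SD, n = 3). All 3 libraries were higher in the second quantification than in the first, by a wide margin, and replicate 3 was the highest in the second and the lowest in the first.

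**Figure D1:**
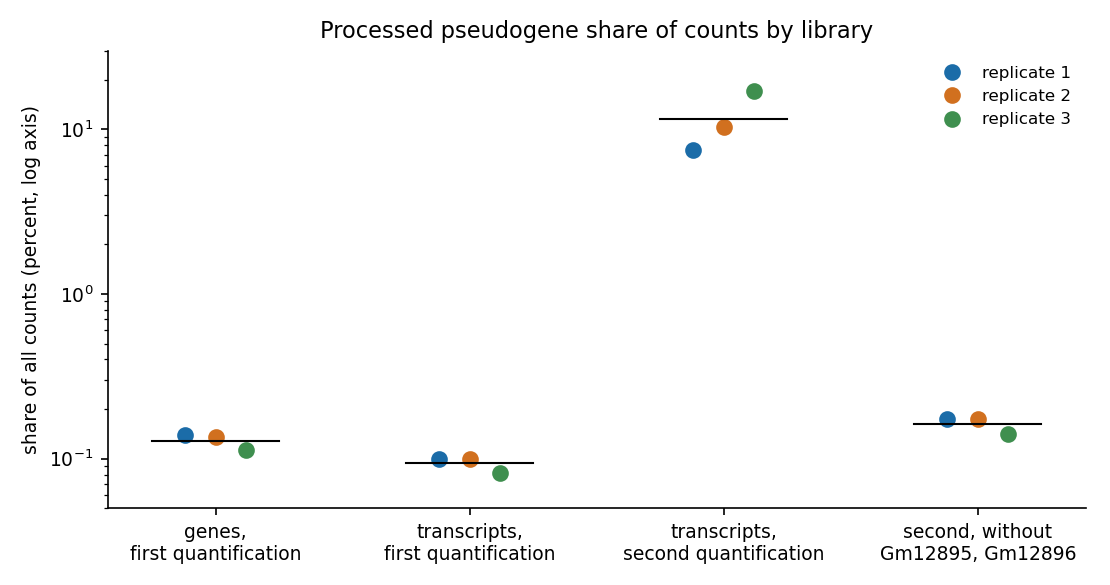
Share of all counts held by processed pseudogenes in each library (points; bars are the mean of 3 libraries), on a log axis in percent. The second quantification stood at 7.53% to 17.1%, and at 0.140% to 0.174% once Gm12895 and Gm12896 were left out.

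A pair of members accounted for nearly all of the second quantification's share. Gm12895 received 1213450, 5034090 and 4192010 estimated counts in replicates 1, 2 and 3 and Gm12896 1214500, 5034090 and 4192010. Together they held 97.9%, 98.5% and 99.3% of the members' estimated counts and 32.3%, 36.7% and 50.1% of all TPM of that table. In the first quantification both were at 0 in every library. Against a floor of 3 counts per library, Gm12895 was at least 334740-fold higher in the second quantification and Gm12896 at least 335029-fold. Gm12895 has a GC content of 71.2%, which 3 members, itself included, reach or exceed, against a median of 47.4% over members. No other gene overlaps either member, and a search of all 141767 transcripts returned, for each of them, the other one and nothing else. Which RNA gave these reads was not tested. Without the pair the members held 0.174%, 0.173% and 0.140% of the remaining estimated counts, a mean of 0.163%. The member transcripts held 0.0995%, 0.0994% and 0.0817% in the first quantification.

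Gm19220 was likewise at 0 in every library of the first quantification and received 5570, 5612 and 4067 estimated counts in the second, at least 1017-fold above a floor of 3 counts. Replicates 1 and 2 were close to each other in counts although the total of replicate 2 is 99317204 and that of replicate 1 is 32961028. Its closest coding transcript, from the acetyltransferase gene Naa10, is 74.2% identical, and 99.6% of its 31-base windows occur in no other gene. Unlike for the pair, the search returned other transcripts, 37 of them. The other members with a run of 20 or more C are Gm15310 and Gm18801, chosen after their values were seen. They had mean estimated counts of 0.333 and 0. Their runs are at most 21 bases, against 33 in Gm19220, so they do not match it. The part of the run in the counts of Gm19220 was not tested.

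Members with few or no windows of their own held most of the members' counts. All transcripts of a gene were cut into windows of 31 bases, and a window was called unique where no other gene contained it on either strand. The 480 members with no unique window made up 4.69% of the members but 39.99% of their counts in the gene table, and the 478 with up to 10% unique windows held another 36.2%. At the other end, the 4445 members with more than 90% unique windows held 5.16% of the counts, and 89.8% of them were at 0 in every library. The share of members with at least 10 counts in every library was 12.1% without a unique window, 14.6% up to 10%, 3.57% from 10 to 50%, 0.895% from 50 to 90% and 0.450% above 90%. Gene counts include other transcripts of the same genes. On the member transcripts alone the class without a unique window held 51.6% of counts, that with up to 10% 23.2% and that above 90% 5.23%. By alignment to protein-coding transcripts 9666 members had a closest coding transcript, with a median identity of 89.0%. The 589 members at 99% identity or more held 81.1% of the counts, and the 154 at 100% held 56.2%, whereas the 3925 from 85% to 95% held 4.36% and the 3415 under 85% held 5.07%. On the member transcripts alone these 4 shares were 79.2%, 48.9%, 4.29% and 4.84%. At least 10 counts in every library were reached by 25.5% of members at 99% or more, 2.71% from 95 to 99%, 0.535% from 85 to 95% and 0.586% under 85%.

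**Figure D2:**
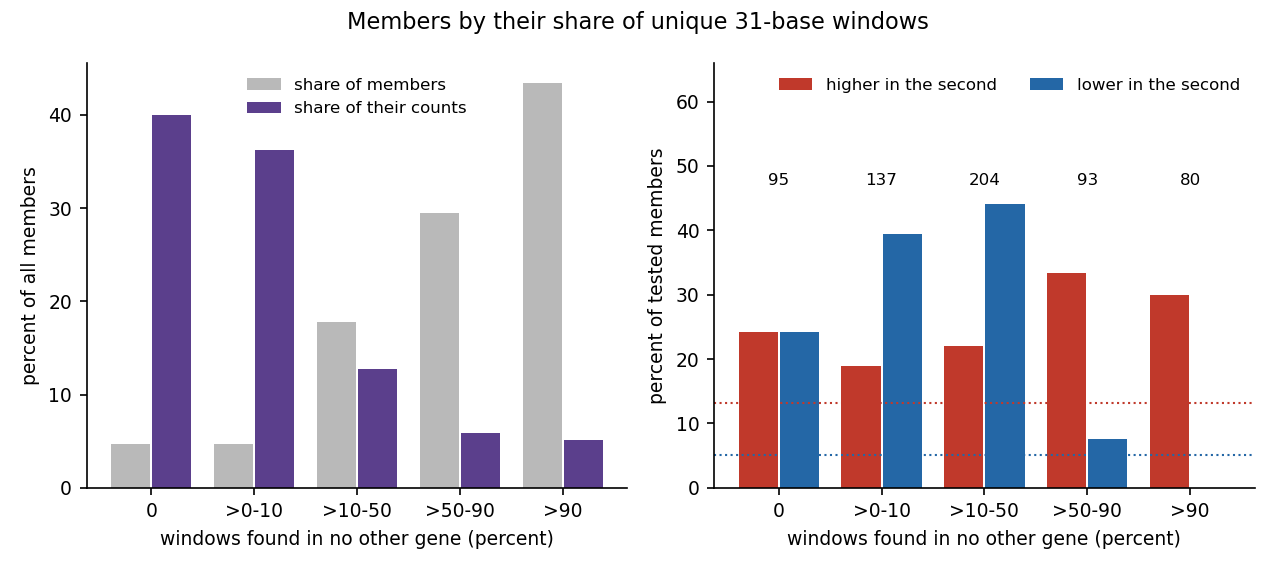
Left, percent of members (grey) and of their gene table counts (purple) by the share of windows that occur in no other gene. Right, percent of tested members called higher (red) or lower (blue) in the second quantification, with the number tested above and dotted lines at 13.2% and 5.06%, the shares over all transcripts tested; members with no unique window were 4.69% of all but held 39.99% of counts.

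The estimates themselves recorded this uncertainty. An expected count that is not a whole number (beyond 0.005) shows that at least 1 read was divided between features. Of the 377 members with a mean count of at least 10, 322 (85.4%) had a non-whole count in some library, against 28.4% of protein-coding genes, 30.7% of lincRNA genes and 75.8% of unprocessed pseudogenes. In the 28 such members with more than 90% unique windows, 89.3% had whole counts in all libraries, while 1.28% of the 78 members without a unique window did. The deposited posterior SD of the count, relative to the posterior mean, had a median of 0.0891 over the 254 members with a posterior mean of at least 10 in every library and 0 over protein-coding genes. It exceeded 10% in 44.9% of these members, 18.4% of unprocessed pseudogenes, 6.42% of lincRNA genes and 1.26% of protein-coding genes. These classes were not matched in count level.

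Counts were concentrated in few members: the highest gene held 14.3% of all member counts in the gene table, the 10 highest 39.2% and the 100 highest 81.7%. All but 1 of these 10 match a coding transcript at 100% identity, and most of those transcripts encode ribosomal proteins. Gm15500 (chr7:114705217-114706235, minus strand), a copy of Rpl5, a protein of the large ribosomal subunit, had 5972, 15333 and 5824 counts in replicates 1, 2 and 3 and 119 ± 29.2 TPM (SD, n = 3). Tpt1-ps3 followed with 2602, 6011 and 1726 counts. It stood at 124 ± 53.7 TPM, from 180, 120 and 72.5 TPM. Gm7536, a copy of Rpl27a that lies inside another gene on the opposite strand, had 1345, 4042 and 1321 counts and 102 ± 26.2 TPM. Rpl31-ps8 had 1264, 4047 and 1166 counts and 135 ± 40.3 TPM, the highest mean TPM of all members, and Rps23-ps1, which lies over an exon of another gene on the opposite strand, had 909, 3902 and 1140 counts and 91.2 ± 21.3 TPM. On the TPM scale replicate 3 was the lowest for each of these 5 members.

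Some perfect copies of each other were listed at equal values. Rpl27-ps3 and Gm11518, on different chromosomes, have identical sequences, both matching the whole coding sequence of Rpl27, and both were listed at 591, 2226 and 734 counts, with posterior SDs of 266, 651 and 384 for Rpl27-ps3. Over all members 126 transcripts in 54 groups share their whole sequence with another member. How many of these groups had equal values was not counted. Equal values did not hold in every case: Gm10359 and Gm12671, chosen after their values were seen, both equal the whole coding sequence of Gapdh, a glycolytic enzyme gene. Gm10359 had 88.1, 567 and 91.4 counts and Gm12671 88.1, 0 and 91.4. Gm10123, a copy of Ppia (the cyclophilin A gene), had 902, 1790 and 548 counts. Morf4l1-ps1, a copy of the chromatin-factor gene Morf4l1, was the exception among the 10, with 99.8% identity and 4.69% unique windows, and had 642, 1963 and 742 counts.

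**Figure D3:**
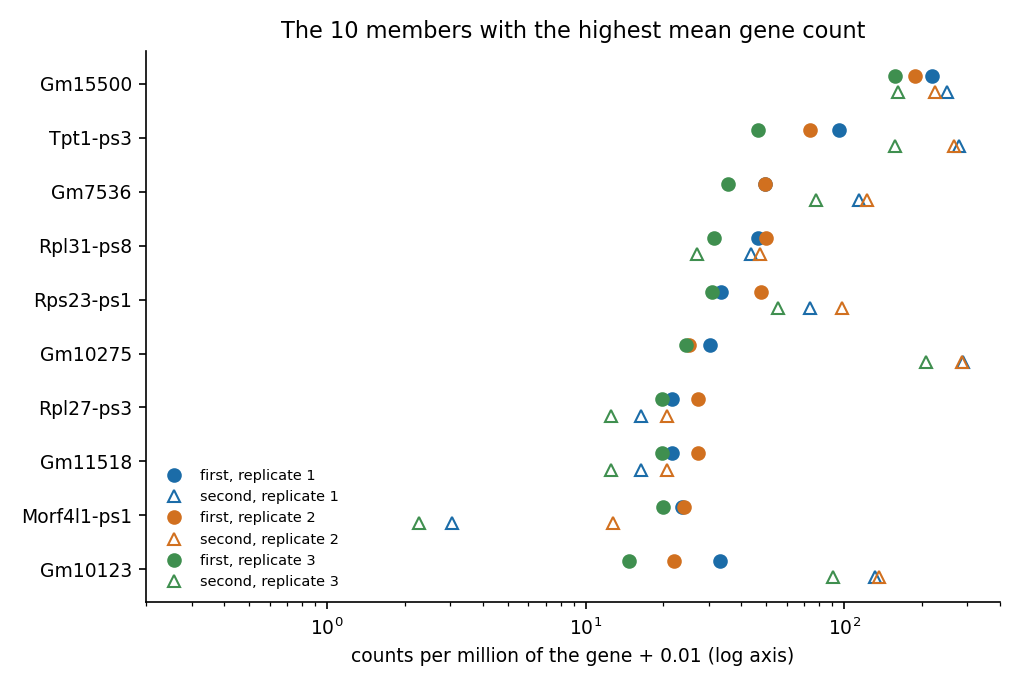
CPM plus 0.01 on a log axis for the 10 members with the highest mean gene count, in the first (filled circles) and second quantification (open triangles, all transcripts of the gene summed), each point being 1 library. Gm15500, Tpt1-ps3, Gm7536, Rps23-ps1, Gm10275 and Gm10123 lie to the right in the second quantification in every library, and Rpl31-ps8, Rpl27-ps3, Gm11518 and Morf4l1-ps1 to the left.

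Ranking by TPM, which divides by length, brought forward short copies. Gm10443 had 148, 438 and 176 counts, or 103 ± 24.9 TPM. Gm12338, a 192-base copy of the cytochrome oxidase subunit gene Cox7c, stood at 79.7, 123 and 81.5 TPM and Gm12481, a copy of Serf2, at 83.9, 86.5 and 62.1. Gm8325, a copy of the ubiquitin-conjugating enzyme variant gene Ube2v1, reached 65.8 ± 7.16 TPM from 47.2, 159 and 70.1 gene counts, but its pseudogene transcript itself had only 4.08, 8.12 and 5.19 of them.

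The class transcribed_processed_pseudogene had a larger share of detected members: 40 of its 301 members (13.3%) had at least 10 counts in every library, against 200 of 9943 (2.01%), and its genes held 29.3% of member counts. Much of this signal lay outside the pseudogene transcripts. On the member transcripts alone the class held 3.39% of counts, near its 2.94% of members. For Gm15500 the pseudogene transcript itself was assigned 45.1, 0.01 and 0.25 counts in the first quantification and less than 1 count in every library of the second, the rest of the gene's counts being in its other transcript. Gm10275 (closest to Rpl12; 823, 2042 and 911 gene counts), Gm10177 (Sec61g; 576, 1717 and 642) and Gm10175 (Atp5g2; 396, 1229 and 470) had 0 counts on the pseudogene transcript in every library of both quantifications. At the level of genes, the second quantification gave Gm10275 9514, 28471 and 10284 counts, above every value of the first, and gave Gm10177 597, 1751 and 672. Rpl12 itself went the other way from Gm10275, from a mean of 14412 counts in the gene table to 370 in the second quantification.

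Copies identical to an mRNA over their whole length were treated unequally by the quantifications. There are 134 such members, and 51 of them equal the whole coding sequence of a transcript from its first to its last base, 57 lie within a coding sequence, and 26 reach outside it. They make up 1.31% of the members and held 55.3% of the gene counts of all members, or 47.6% of the counts on member transcripts alone. Of the 51 whole coding sequences, 33 had a mean count of at least 10 in the first quantification and 26 in the second; 21 reached it in both, 12 in the first alone and 5 in the second alone. Of the 12, 9 were at exactly 0 in every library of the second quantification.

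Tpt1-ps3 and Rps6-ps4 mark both outcomes. Tpt1-ps3 had 2602, 6011 and 1726 counts in the first quantification and 9199, 26436 and 7783 in the second, a log2 difference in CPM of 1.72 ± 0.071 (SE; limma adjusted p = 0.0017). Its counts in the second quantification exceeded those in the first in all 3 libraries. Rps6-ps4 had 231, 1243 and 358 counts in the first quantification and 0 in every library of the second, at least 93.2-fold lower against a floor of 3 counts. Rpl15-ps3, equal to the whole coding sequence of Rpl15, had 319, 965 and 507 counts in the first and 0 in the second, at least 128-fold lower. Gm10443 was at 0 in the second quantification too, at least 59.4-fold lower. Rpl31-ps8, by contrast, had 1439, 4700 and 1330 counts in the second quantification, and its log2 difference of -0.13 ± 0.050 did not pass the test (limma adjusted p = 0.12). The members Tpt1-ps3, Rps6-ps4, Rpl15-ps3, Gm10443 and Rpl31-ps8 all lack a unique window, and what sets them apart in the second quantification was not tested.

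**Figure D4:**
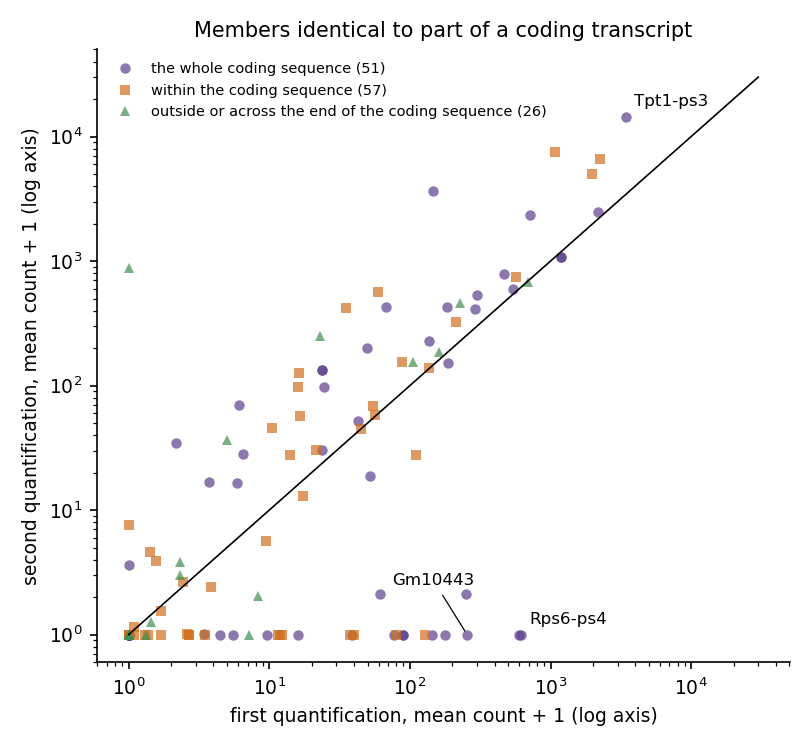
Mean counts plus 1 over 3 libraries of the 134 members identical over their whole length to part of a coding transcript, first against second quantification on log axes, by where in that transcript they lie; the line marks equal counts. Of the 51 copies of a whole coding sequence, 9 with a mean of at least 10 in the first quantification lie on the floor of the second.

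The quantifications were then compared over all transcripts with limma, on log2(CPM + 0.1) differences within each library. Transcripts entered with a mean of at least 0.1 CPM over both quantifications, so 1 at 0 in either quantification passed only through the other. Of 10244 members 609 passed that filter. In the second quantification 149 members (24.5%) were called higher, at an adjusted p under 0.05 and at least 2-fold, and 174 (28.6%) lower; over all 45776 transcripts tested the shares were 13.2% higher and 5.06% lower. All 323 calls had the same direction in each of the 3 libraries, which is no separate evidence, since the calls were made from these same differences. The members' median difference was -0.031, close to 0.0043 over all transcripts and -0.14 over protein-coding transcripts. On deposited TPM, whose median difference over all transcripts was -1.005, 76 of 575 members were called higher and 255 lower, with a median of -0.94. Over all 33202 transcripts tested on TPM the shares were 6.91% higher and 49.5% lower. The members' share of lower calls was thus not above that of all transcripts on this scale. With counts summed to genes, 177 of 659 member genes were called higher and 203 (30.8%) lower, against 11.6% and 1.93% of the 16929 genes tested; members were 3.89% of genes tested and 62.1% of those called lower. Of the tested members 91 had 0 counts in every library of the first quantification and 45 in the second. Of the 149 called higher, 80 were below 1 count in every library of the first quantification. Of the 174 called lower, 41 were below 1 count in every library of the second. For these the filter itself favoured the direction of the call.

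**Figure D5:**
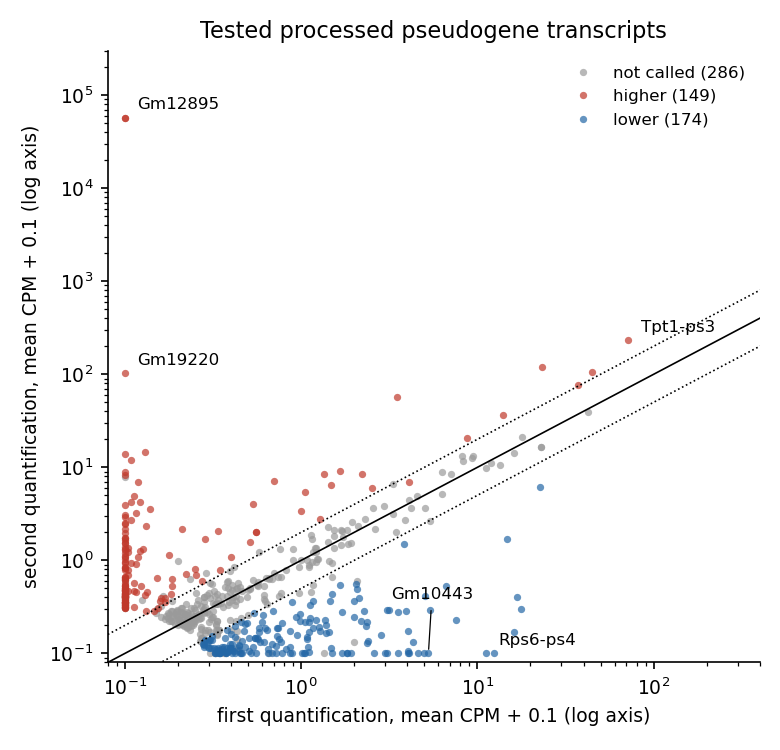
Mean CPM plus 0.1 over 3 libraries of the 609 tested member transcripts in the first and second quantification, on log axes, with the line of equality and dotted lines at 2-fold. The 149 called higher include a column at 0 in the first quantification, with Gm12895 and Gm12896 at the top, and the 174 called lower spread along the floor of the second.

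Among members called higher with a mean of at least 1 CPM, the 6 with the highest fold were led by Gm12896, Gm12895 and Gm19220. Gm5641, a copy of the RNA-binding protein gene Hnrnpa3, had 0 counts on its pseudogene transcript in the first quantification and 455, 1661 and 517 in the second, at least 126-fold more. Its gene had 463, 1250 and 420 counts in the first quantification, on another transcript. Gm48493 had 0, 0 and 1 counts in the first quantification and 422, 800 and 736 in the second, with 1.63% unique windows. Gm6472, a copy of Rps7 on chromosome X, had 0, 7.27 and 0 counts against 431, 2454 and 291. In the second quantification each of these 6 members exceeded its first value in every library. That is no separate evidence, since these members were picked by these same differences.

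Members called lower with the highest fold were near-perfect copies. After Rpl15-ps3 and Rps6-ps4 came Gm7964, 99.2% identical to the RNA-binding protein gene Hnrnpk, with 437, 1375 and 572 counts in the first quantification and 3.60, 5.75 and 1.85 in the second, a log2 difference of -6.61 ± 0.14 (SE; limma adjusted p = 0.00081). Gm13509, 99.7% identical to the clathrin adaptor gene Ap2m1, fell from 468, 1547 and 616 counts to 10.5, 9.75 and 9.40. Gm2423, 99.7% identical to the 14-3-3 gene Ywhaq, had 122, 371 and 206 counts in the first quantification and 0 in the second, at least 49.1-fold lower. Unlike the whole-length copies above, Gm7964, Gm13509 and Gm2423 carry differences from their closest mRNA, with 21.1%, 8.22% and 4.41% unique windows.

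Calls followed the sequence classes unevenly. Of 95 tested members without a unique window, 23 (24.2%) were lower and 23 higher. Lower calls made up 39.4% of 137 tested members with up to 10% unique windows, 44.1% of 204 with 10 to 50%, 7.53% of 93 with 50 to 90% and 0 of 80 above 90%, while 24 of these 80 and 19.0% to 33.3% of the other classes were higher. By identity, 110 of 241 members at 99% or more were lower and 27 higher, but of the 79 among them at 100% 14 were lower and 20 higher. Of 147 members between 85% and 95% 4 were lower and 75 higher. Where the closest coding gene had fewer than 10 counts, 65 of 82 tested members were called higher and 2 lower. In the highest class of closest gene, a mean count of 10000 or more, 24 of 192 were higher and 77 lower. These classes overlap with each other and with the level that the filter requires, and their differences were not tested.

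Few abundant members had whole counts. Only 4 members with a mean count of at least 100 had whole counts in every library. Gm12250 (chr11:58187739-58189012, plus strand), with 100% unique windows and 68.5% identity to its closest coding transcript, from Gm5431, had 634, 1459 and 456 counts in the first quantification and 908, 2098 and 691 in the second, a log2 difference in CPM of 0.22 ± 0.043 (SE; limma adjusted p = 0.026, under the 2-fold minimum). Gm19142, 81.3% identical to the RNA-binding protein gene Syncrip, had 67, 173 and 77 counts in the first quantification and 105, 267 and 112 in the second. Gm19253, the copy of Mrps36 printed above, had 48, 216 and 73 counts against 277, 931 and 363 and was called higher, by 1.94 ± 0.11 on the log2 scale (limma adjusted p = 0.0027). Gm21926 had 189, 631 and 203 gene counts, none of them on its pseudogene transcript.

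Members were also grouped by their place in the genome. Of all members 7187 (70.2%) overlap no other gene, and 85.2% of these were at 0 in every library. The members inside an intron of another gene were at 0 in 62.9% (1029 members, same strand) and 64.3% (1540, opposite strand), and those over an exon of another gene in 67.4% (187, same strand) and 62.8% (301, opposite strand). The labels and files do not say whether the libraries kept strand, so reads of a host gene and of a member on either strand could not be told apart.

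Symbols of the form parent-ps allowed copies to be set against the gene they are named for. Of 682 such members 586 have a protein-coding gene of that name in the table, for 261 parent genes. Where the parent had a mean of at least 10 counts in the gene table, 333 of 563 copies were at 0 there. None of these 563 exceeded its parent in mean gene table count, and the 69 copies with a mean of at least 10 counts stood at a median of 0.472% of the parent. Where the parent was under that limit, some copies did exceed it. Mrpl23-ps1, chosen after its values were seen, had 237, 590 and 304 counts against 260, 860 and 271 for Mrpl23, so it was above its parent in replicate 3. In the second quantification its mean was 790, against 129 for Mrpl23. Summed over all families, copies held 0.811%, 0.777% and 0.659% of the family's counts in the gene table (mean 0.749% ± 0.0798, SD, n = 3) and 1.39%, 1.53% and 1.10% in the second quantification. The copies' share was higher in the second quantification in every library, also without the Tpt1 family, where the means were 0.620% and 0.788%.

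On counts, ribosomal protein families had a larger share on copies than the other families. The 295 copies named for ribosomal protein genes held 1.36% ± 0.0356 of their families' counts in the gene table (SD, n = 3), against 0.487% ± 0.0874 for the other 291 copies with a parent, and 2.22% against 1.01% in the second quantification. The share of the other copies rested on single families. Without the Tpt1 family, a choice made after seeing the data, it was 0.287% in the gene table and 0.211% in the second quantification, lower in the second in every library. Without Ftl1, the ferritin light chain gene, whose only copy among these had a mean of 0.333 counts, it was 0.781% and 1.60%. No ribosomal family was left out, so how far the ribosomal share rests on single families was not tested. Among ribosomal families the copies of Rpl31, Rps23 and Rpl27 had the highest mean gene table counts, 2161, 1986 and 1185. On gene table TPM the ribosomal copies held 2.80% and the other copies 1.41%, with 0.752% for the others without Tpt1. Without Ftl1 the others held 2.82%, so the difference was not seen there. The ribosomal copies have 62 parent genes and the others 199, so copies per family differ too. Of the 40 ribosomal copies tested, 24 were called lower and 3 higher in the second quantification, next to 19 and 7 of the 45 other -ps members tested; the background over all transcripts was 5.06% lower and 13.2% higher. Rps23-ps1 was among the copies that did not follow the majority: it had 909, 3902 and 1140 counts in the first quantification and 2431, 9742 and 2747 in the second, and was called higher by 1.01 ± 0.070 on the log2 scale (SE; limma adjusted p = 0.0039). Rps23 itself had 7155, 21706 and 7275 counts in the gene table and 5994, 16611 and 5935 in the second quantification, fewer in every library.

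Single families diverged more than the sum. Copies held 4.99% of the Tpt1 family's counts in the gene table and 19.8% in the second quantification, while Tpt1 itself had 42738, 109870 and 44077 counts against 39453, 95934 and 40873. In the Rps23 family the copies' share was 14.2% and 34.3%, in the Rpl31 family 21.4% and 23.97%, and in the Rpl27 family 29.0% and 25.03%. In the Morf4l1 family it was 8.61% and 3.47%. The Rps6 and Rpl15 families went the other way, from 4.55% and 5.19% in the gene table to 0.0339% and 0.0648%. Rps6 had 7688, 23070 and 7744 counts in the gene table and 8266, 24952 and 8353 in the second quantification. The totals of the second quantification are higher than those of the gene table in every library, so these counts compare copies and parents within a quantification rather than levels between them.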

How the data were processed

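Total RNA-seq of 3 libraries of 1 condition was analysed. Per the labels and the deposited notes, alignments to the transcriptome gave the gene table and the first transcript table, and the reads directly gave the second transcript table (mm10, GENCODE M21), by tools not given in the sources used here. Deposited expected counts (estimated counts in the second transcript table) are model estimates of reads; the deposited TPM is scaled per library over all rows; the deposited posterior SD, treated as a score, is in reads. Rows naming no gene (0.402%, 0.108% and 0.122% of counts) were left out, and 95 transcripts of the first table alone are not used here.

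Members and lists were chosen with earlier results of these data known. Named members follow a rule on rank: the 10 highest by count and by TPM, 5 transcribed, 6 called in each direction at 1 CPM or more, up to 5 with whole counts and 5 -ps copies; others are marked, and 1 member that the rule would name is not reported here. Window counts used 31 bases, and the closest coding transcript came from blastn 2.17.0 (dc-megablast, e-value 1e-10, plus strand). Overlaps used bedtools 2.31.1. Differences within libraries were tested with limma 3.58.1 (R 4.3.3; intercept only, trended, two-sided, Benjamini-Hochberg over all transcripts), checked on simulated counts; edgeR 4.0.16 on rounded counts was an alternative. Both tables come from the same library, which pairs them. Replicate pairs differed by more than sampling noise (chi-square over degrees of freedom of 45.5 to 64.5 across genes), so each counted as 1 replicate. Expected counts carry both counting and assignment error, and their depth is the total per library.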

Additional observations from a re-analysis of the deposited data

How the results depend on the processing

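Of 84 values computed for 10 results under other settings, 57 stayed close to the reported value (within 1.5 times for counts, within 1 SD between libraries otherwise) and 27 moved. The gene table share moved to 0.0911% over genes with member transcripts only and to 0.149% without 5 abundant small RNAs (Rn7s1, Rn7s2, Rn7sk, Rpph1 and Rmrp) in the denominator, and the second quantification's share to 0.163% without Gm12895 and Gm12896, a setting chosen after seeing the data. Genes at 1 TPM in all libraries (132) became 417 at 0.1 TPM, 45 at 5 TPM, 281 after rescaling over nuclear-encoded protein-coding genes, 321 with posterior mean TPM and 57 in the second quantification. In the second quantification Gm12895 and Gm12896 held 32.3%, 36.7% and 50.1% of TPM, so 1 TPM is a stricter limit there for the other genes. Genes at 10 counts (240) became 836 at 1 count and 55 at 100. Non-whole counts (85.4%) became 63.5% at a mean of 1 and 95.5% at 100. With a pseudocount of 1 CPM 53 of 609 members were called higher and 52 lower, against 3.95% and 3.18% of all transcripts tested. A filter of 1 CPM gave 44 and 42 of 139 members, against 8.84% and 7.49%. On TPM 76 of 575 members were higher, against 6.91%. The median difference (-0.031) became 0.078 without a filter, 0.085 at 1 CPM and 0.11 when centred on protein-coding transcripts. It became 0.11 without Gm12895 and Gm12896 and -0.94 on TPM, and it changed sign without replicate 2 (0.0035). With members at 0 set to their bound it stayed at -0.031, which is no separate evidence. The bounds keep each such member on its side of the median. The -ps share (0.749%) became 1.34% in the second quantification and 2.09% on TPM, and, chosen after seeing the data, 0.620% without the Tpt1 family and 1.02% without the Ftl1 family, and the posterior ratio (0.0891) became 0.0615 at a posterior mean of 100.

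Leaving out each library in turn gave 0.123% to 0.136% for the gene table share, 8.91% to 13.7% for the second quantification, 137 to 148 genes at 1 TPM, 245 to 299 at 10 counts, 83.2% to 87.4% non-whole, 114 to 141 higher and 141 to 167 lower calls, medians of -0.054 to 0.0035, -ps shares of 0.718% to 0.794% and posterior ratios of 0.0794 to 0.104. Over all transcripts the fits without 1 library called 9.55% to 12.7% higher and 4.21% to 5.68% lower. Without the replicate block 126 of 609 members were higher and 152 lower, against 9.12% and 3.79% of all transcripts. The edgeR fit with the replicate block gave 165 and 183, against 15.1% and 5.41%. The causes of these changes were not tested. Depth limits the members near 3 counts, and the division of reads between identical sequences is not resolved by depth.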
